A study of Caenorhabditis elegans with 2 samples.

Results

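The shared peaks described here are the strongest sites of tagged ALY-2 that were found in both replicates of a chromatin immunoprecipitation and sequencing (ChIP-seq) experiment in the nematode Caenorhabditis elegans. Whole L4 larvae of the last larval stage, mixed in sex, carried unc-119(ed3) on chromosome III and the insertion ddIs172 (strain OP217), which expresses ALY-2 with GFP and FLAG fused to its C-terminus. Both replicates, numbered 1 and 2, are of this 1 transgenic line. No untagged or otherwise treated group was analysed, and the strain, tag and stage are shared by all values, which average over all tissues of the animals. Each replicate has a permissive list, a peak list deliberately cut low so that it holds background too. The 1000 highest signal values were kept from each such list, out of 17453 peaks in replicate 1 and 29384 in replicate 2. A replicate 1 peak was counted as shared when it overlapped at least 1 bp of a kept replicate 2 peak, which gave 201 shared peaks, or 20.1% of the 1000. They overlapped 206 peaks of replicate 2, and 799 and 794 peaks of the kept lists stayed unshared. Of all permissive replicate 1 peaks, 3.77% overlapped one of replicate 2's 1000 strongest. The members were thus selected on the signal values themselves, so those values and ranks are given as a description, with no test.

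ALY-2 belongs to the Aly/REF family, RNA-binding adaptors that join messenger ribonucleoproteins and help hand mRNA to the export receptor at the nuclear pore. Related proteins in yeast and mammals are loaded onto transcripts together with the THO complex while the gene is being read. Small nucleolar RNAs (snoRNAs) guide the chemical modification of ribosomal RNA, and tRNAs carry amino acids to the ribosome. In C. elegans many snoRNA genes sit in introns of protein-coding genes.

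The sites printed next show the kinds of place the shared peaks mark, each as 201 bp around the replicate 1 summit in ce11, 5′ to 3′ on the strand of the named gene, from the RefSeq assembly of that build. The first lies upstream of rpl-3, the second at a snoRNA gene, the third upstream of cdc-48.1, the fourth at a tRNA-Ala gene and the last in a coding exon of pod-2. Capitals mark the bases between the summits of both replicates for rpl-3, cdc-48.1 and pod-2, as far as the window reaches, and the annotated RNA gene for C51F7.4 and F15B9.t1.
rpl-3 upstream (chrIII:3867426-3867626, plus strand): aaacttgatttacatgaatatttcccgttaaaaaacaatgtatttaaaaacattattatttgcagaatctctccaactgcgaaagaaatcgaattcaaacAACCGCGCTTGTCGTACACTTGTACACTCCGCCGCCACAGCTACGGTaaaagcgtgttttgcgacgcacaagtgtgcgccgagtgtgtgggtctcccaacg
C51F7.4 snoRNA (chrV:12303528-12303728, plus strand): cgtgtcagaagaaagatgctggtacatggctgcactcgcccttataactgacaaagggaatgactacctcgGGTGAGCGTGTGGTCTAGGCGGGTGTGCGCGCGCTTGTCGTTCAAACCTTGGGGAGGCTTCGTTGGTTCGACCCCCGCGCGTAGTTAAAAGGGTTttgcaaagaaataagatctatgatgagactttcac
cdc-48.1 upstream (chrII:10563431-10563631, minus strand): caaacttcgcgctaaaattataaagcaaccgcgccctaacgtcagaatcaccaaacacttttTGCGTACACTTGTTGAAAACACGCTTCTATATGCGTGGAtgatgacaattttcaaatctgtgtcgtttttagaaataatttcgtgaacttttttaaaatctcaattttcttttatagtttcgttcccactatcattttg
F15B9.t1 tRNA-Ala (chrV:13003465-13003665, minus strand): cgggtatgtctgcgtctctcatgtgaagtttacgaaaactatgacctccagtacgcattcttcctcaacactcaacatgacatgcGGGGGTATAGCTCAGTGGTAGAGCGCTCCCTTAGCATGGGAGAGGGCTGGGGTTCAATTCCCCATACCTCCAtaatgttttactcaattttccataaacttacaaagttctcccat
pod-2 coding exon (chrII:1150521-1150721, plus strand): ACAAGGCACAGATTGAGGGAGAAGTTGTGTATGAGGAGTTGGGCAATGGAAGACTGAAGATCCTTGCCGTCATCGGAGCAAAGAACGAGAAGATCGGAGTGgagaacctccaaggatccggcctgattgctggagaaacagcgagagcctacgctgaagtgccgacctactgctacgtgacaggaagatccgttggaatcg
GC content over these windows was 42.8% at rpl-3, 51.7% at C51F7.4, 34.3% at cdc-48.1, 46.3% at F15B9.t1 and 52.7% at pod-2. At rpl-3 the replicates' summits were 46 bp apart and at cdc-48.1 38 bp apart, whereas at pod-2 they were 223 bp apart, beyond the window.

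The strongest shared peaks, ordered by the worse of the 2 ranks, stood at or beside hsp-1, rpl-3, prg-1, Y82E9BR.3 and the noncoding RNA gene ZK930.13. Signal values are the authors' own and their scale is not stated, so values are compared by rank within a list. The peak with the best pair of ranks, at chrIV:17281141-17281524, had its summit 3 bp past the end of hsp-1, which encodes the Hsc70 chaperone, at rank 5 in replicate 1 with a signal of 35.7 and rank 4 in replicate 2 with 54.8. The peak upstream of rpl-3, a large-subunit ribosomal protein gene, was at rank 6 in both, with signals of 33.2 and 52.8, and its summit was 328 bp before the start. These peaks were high in both replicates. At prg-1, which encodes the Piwi Argonaute that binds piRNAs in the germline, a peak in the 3' UTR was at rank 3 with a signal of 38.3 in replicate 1 and rank 10 with 46.7 in replicate 2. A peak inside Y82E9BR.3 was at ranks 7 and 12, with signals of 31.3 and 43.7. The peak 295 bp upstream of the noncoding RNA gene ZK930.13 was at ranks 2 and 15, with signals of 39.3 and 40.1. All 5 were in the first 15 of both lists. Next by the worse of the 2 ranks came a peak in unc-70, the beta-spectrin gene, 289 bp upstream of the snoRNA gene K11C4.6, at ranks 9 and 17 with signals of 29.4 and 39.4. An intron of bcf-1 held a peak at ranks 14 and 26, and the snoRNA gene C51F7.4 one at ranks 29 and 18.

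The rest of the strongest 20 were chosen by the same order. The summit in vha-13, a gene for a vacuolar ATPase subunit, lay 78 bp before Y49A3A.3, at ranks 17 and 37. At hsp-90, the cytosolic chaperone gene, 2 peaks met different replicate 2 peaks. The first, in the gene, was at ranks 41 and 52. The second, at ranks 53 and 1, lay just past the gene's end and 58 bp before C47E8.11. Both were classed as promoter, being upstream of C47E8.11. A second rpl-3 peak lay in its 3' UTR at ranks 37 and 54. pod-2, the acetyl-CoA carboxylase gene of fatty acid synthesis, held one at ranks 59 and 51, and a peak 257 bp upstream of dpf-3 and inside ahcy-1, which encodes S-adenosylhomocysteine hydrolase, was at ranks 66 and 38. din-1, a nuclear receptor co-repressor gene that contains the noncoding gene F07A11.12, gave ranks 13 and 72, cdc-48.1, the p97 ATPase gene, 72 and 24, and the 3' UTR of hsp-3, the endoplasmic reticulum chaperone gene, 21 and 81. The last 3 were gldi-8 at 32 and 85, the 3' UTR of alg-1, the microRNA Argonaute gene, at 86 and 63, and a peak within atp-2, an ATP synthase subunit gene, 789 bp upstream of prmt-5, at 87 and 50. Each of these 20 overlapped a peak of the authors' final list of reproducible peaks.

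High rank in one replicate did not secure high rank in the other. The strongest peak of replicate 1, with a signal of 41.3 in a coding exon of srt-47, was only at rank 822 in replicate 2 with a signal of 13.7. A peak in eef-1A.1, the translation elongation factor gene, was at rank 11 with 28.9 against rank 631 with 15.0. The snoRNA gene ZK994.7, inside pxn-1, had rank 4 with 38.0 against rank 99 with 24.3. In the other direction, a peak in ant-1.1, the mitochondrial ADP/ATP carrier gene, was at rank 592 in replicate 1 and rank 5 in replicate 2. The peak at rpr-1, which encodes the RNA of RNase P, was at ranks 287 and 8, and the one 425 bp upstream of rpl-35 at ranks 128 and 9. The strongest replicate 2 peak, with a signal of 78.2, overlapped 2 replicate 1 peaks at hsp-90, at ranks 53 and 177. Over the 201 shared peaks the signals of both replicates had a Spearman correlation of 0.215 and a Pearson correlation of 0.309, which describe peaks chosen to be strong in both and made with the same control alignment. Replicate 1 gave the better rank at 104 shared peaks and replicate 2 at 96. Only 24 shared peaks were in the first 100 of both replicates, and 114 in the first 500 of both.

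**Figure D1:**
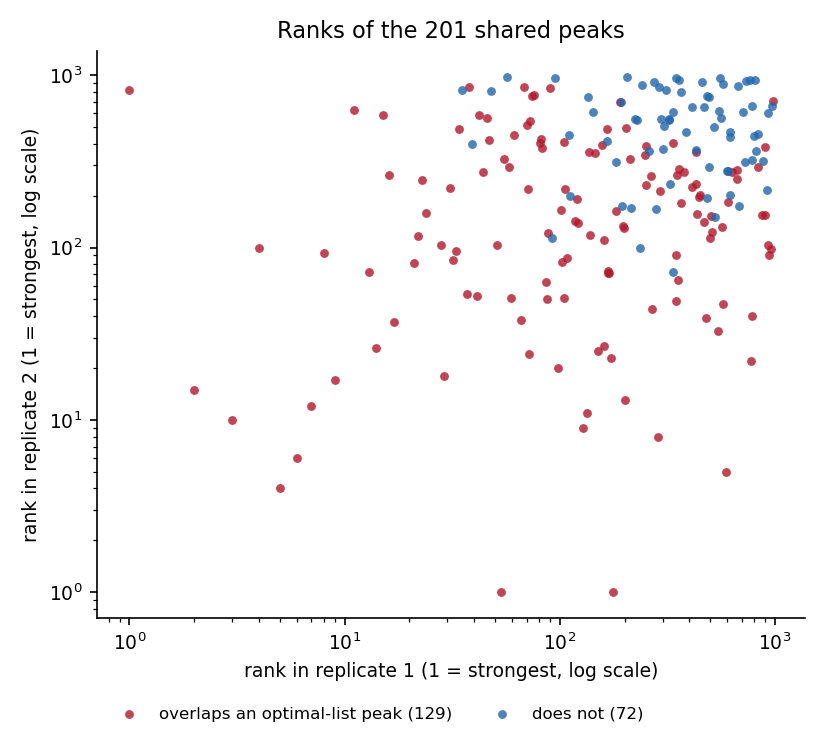
Rank in replicate 1 (x axis, log scale) against rank in replicate 2 (y axis, log scale) for each of the 201 shared peaks, with 1 the strongest; colour shows whether the peak overlaps the authors' optimal list. The points in the lower left are in that list, and some peaks strong in one replicate are far weaker in the other, such as replicate 1's first, at rank 822 in replicate 2, and replicate 2's rank 5, at rank 592 in replicate 1.

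Sharing fell with rank in both replicates. Of replicate 1's first 100 peaks, 60 were shared (60%, exact Clopper-Pearson 95% interval 49.7 to 69.7%), against 8 of its last 100 (8%, 3.52 to 15.2%). Of replicate 2's first 100, 48 were shared (48%, 37.9 to 58.2%), against 12 of its last 100 (12%). Intervals throughout cover counting error over peaks only, and neighbouring peaks are not independent. Among the unshared peaks of replicate 1, 438 met a weaker replicate 2 peak, at a median rank of 6819, and 361 met none in its permissive list. For replicate 2 these were 405, at a median rank of 5367, and 389. The strongest unshared peak of replicate 1, at rank 10 with a signal of 29.0, lay downstream of a gene near T28B11.1 and had no permissive replicate 2 peak. The strongest of replicate 2, at rank 2 with a signal of 62.0, lay in a coding exon of asp-1, an aspartyl protease gene, and met replicate 1 only at rank 2425 with a signal of 11.9. Other strong replicate 2 peaks left unshared were in an intron of vab-10, the spectraplakin gene, at rank 3 and in the 3' UTR of pdi-2, a protein disulfide isomerase gene, at rank 7. Close to this vab-10 peak, the gene also held 2 shared peaks, at replicate 1 ranks 168 and 169. The asp-1, vab-10 and pdi-2 peaks each overlapped a peak of the authors' final list, and the peak near T28B11.1 did not. The limit at rank 1000 cut through near-equal values. In replicate 1 the 3 peaks just inside and the 3 just outside all had a signal of 13.9, and in replicate 2 all had 12.9.

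**Figure D2:**
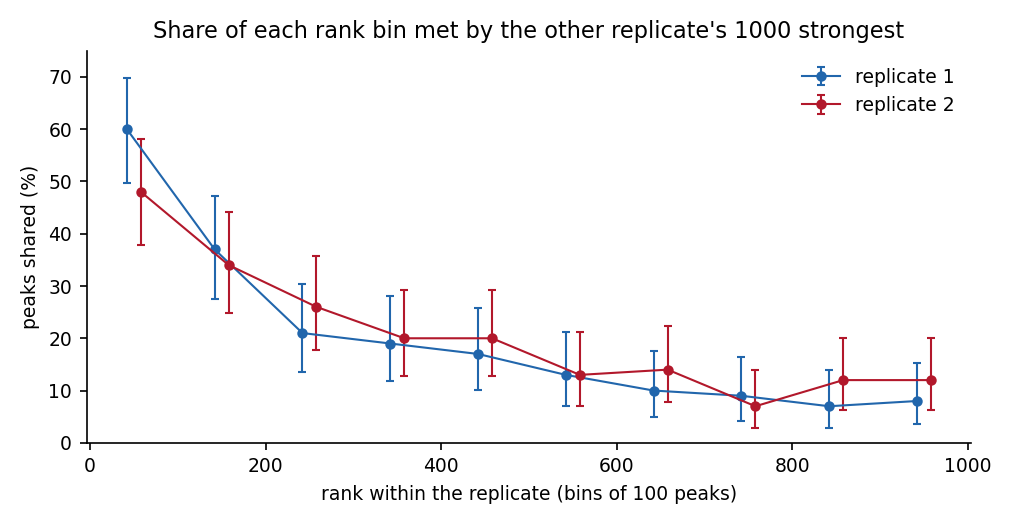
Share of peaks (y axis, percent, with exact 95% intervals) in successive bins of 100 ranks (x axis) that overlapped one of the other replicate's 1000 strongest peaks. The share fell from 60% to 8% in replicate 1 and from 48% to 12% in replicate 2.

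By position, 105 of the 201 shared summits lay in a promoter window, 1000 bp upstream to 200 bp downstream of any transcript start, which is 52.2% (45.1 to 59.3%). Coding exons held 43 (21.4%, 15.9 to 27.7%), 3' UTRs 26 (12.9%, 8.63 to 18.4%), the 500 bp after a transcript end 12 (5.97%, 3.12 to 10.2%) and introns 10 (4.98%, 2.41 to 8.96%). A further 3 were in noncoding exons, 1 in a 5' UTR and 1 in other intergenic DNA. Against the unshared peaks of replicate 1, shared peaks were more often in 3' UTRs (4.88%, 3.49 to 6.61% of the unshared) and less often in introns (14.4%, 12.0 to 17.0%) or other intergenic DNA (5.26%, 3.81 to 7.04%, against 0.498%, 0.0126 to 2.74%), with intervals that did not overlap. The unshared peaks of replicate 2 lay closer to the shared ones: 9.95% (7.96 to 12.2%) in 3' UTRs, 6.93% (5.26 to 8.92%) in introns and 3.02% (1.95 to 4.46%) in other intergenic DNA, all with overlapping intervals. Promoter and coding exon shares overlapped in all 3 sets. With starts of protein-coding genes alone, the promoter share of the shared peaks was 33.8%.

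**Figure D3:**
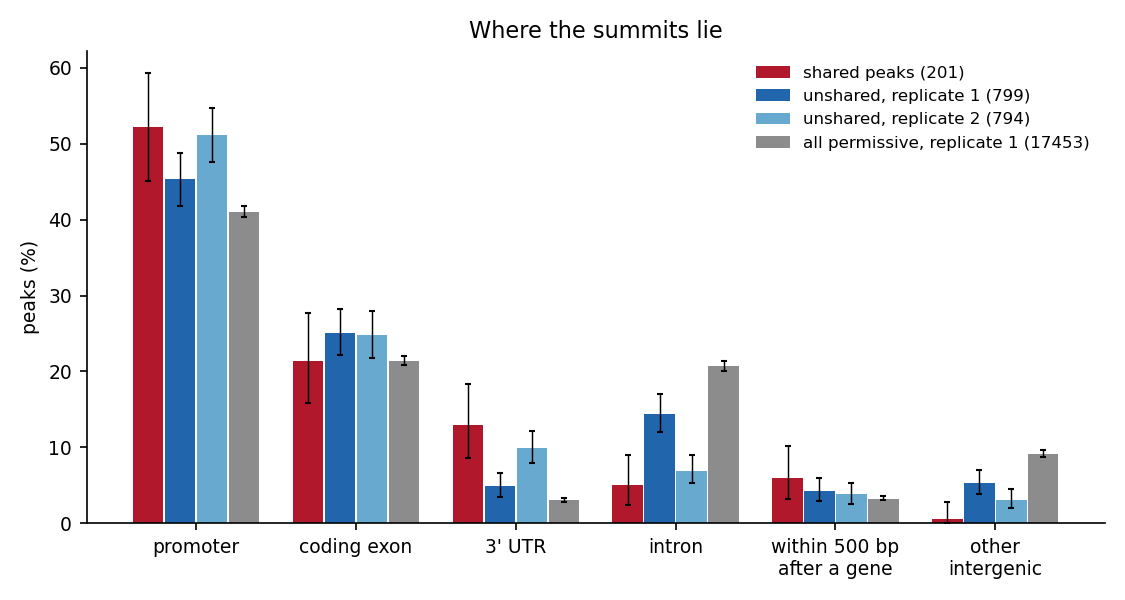
Share of summits (y axis, percent, bars with exact 95% intervals) in each position class for the 201 shared peaks, the unshared peaks of each replicate and all permissive replicate 1 peaks. Shared peaks were at 12.9% in 3' UTRs and 4.98% in introns, against 3.02% and 20.7% of all permissive replicate 1 peaks.

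These shares were also set side by side within ranges of rank. The rank ranges were chosen after the shares above had been seen. Within replicate 1's first 250 peaks, 3' UTRs held 15.9% (9.54 to 24.2%) of the 107 shared and 4.90% (1.99 to 9.83%) of the 143 unshared peaks, and introns held 5.61% (2.09 to 11.8%) and 14.0% (8.76 to 20.8%), with intervals that overlapped. At its ranks 251 to 1000, 3' UTRs held 9.57% (4.47 to 17.4%) of the 94 shared and 4.88% (3.36 to 6.82%) of the 656 unshared, which overlapped, and introns 4.26% (1.17 to 10.5%) and 14.5% (11.9 to 17.4%), which did not. Within replicate 2's first 250, 3' UTRs held 12.6% of the 95 shared and 13.5% of the 155 unshared, and introns 3.16% and 3.23%. At its ranks 251 to 1000, 3' UTRs held 12.6% (7.07 to 20.3%) of the 111 shared and 9.08% (6.96 to 11.6%) of the 639 unshared, and introns 5.41% (2.01 to 11.4%) and 7.82% (5.86 to 10.2%).

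Shared peaks at gene ends lay on both sides of the annotated transcript end. In the 26 members in 3' UTRs the summit was a median of 116 bp before the annotated transcript end, from 1159 bp before it to 3 bp before it. In the 12 members past a gene it was a median of 95.5 bp beyond the end, from 3 to 301 bp. Members at a gene end that also lay in a promoter window, such as the peak just past hsp-90, were classed as promoter and are not counted here. Beside prg-1, hsp-3, rpl-3 and alg-1, 3' UTR members marked hrde-1, the nuclear Argonaute of heritable RNA interference, at ranks 8 and 93 with signals of 30.5 and 24.9. They also marked lin-29, a zinc-finger regulator of the larva-to-adult switch, at ranks 102 and 82 with signals of 19.6 and 25.6. The remainder, named after their values were seen, included skn-1, the stress-response transcription factor gene, at ranks 250 and 230, and ccr-4, a deadenylase gene, at ranks 35 and 821. Past gene ends, a peak stood 18 bp beyond fat-1, a fatty acid desaturase gene, at ranks 266 and 261. Another lay 96 bp beyond thoc-2, which encodes a subunit of the THO complex, at ranks 458 and 914. It overlapped a shared peak in rps-13 that met the same replicate 2 peak, and neither overlapped a peak of the authors' final list.

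snoRNA genes lay near a larger share of the shared peaks than of the unshared peaks of either replicate. A snoRNA gene started within 200 bp of 20 of the 201 shared summits (9.95%, 6.18 to 14.9%), against 7 of 799 unshared peaks of replicate 1 (0.876%, 0.353 to 1.80%) and 29 of 794 of replicate 2 (3.65%, 2.46 to 5.20%). In all permissive peaks of replicate 1 the share was 0.464%. The intervals of the shared peaks and of both unshared sets did not overlap. Within the first 250 of replicate 1 the shares were 9.35% (4.57 to 16.5%) of shared and 0.699% (0.0177 to 3.83%) of unshared peaks. Within the first 250 of replicate 2 they were 17.9% (10.8 to 27.1%) and 7.74% (4.06 to 13.1%), with intervals that overlapped. At ranks 251 to 1000 they were 10.6% (5.22 to 18.7%) and 0.915% (0.336 to 1.98%) in replicate 1, and 4.50% (1.48 to 10.2%) and 2.66% (1.56 to 4.23%) in replicate 2, where the intervals again overlapped. With the 2000 strongest of each replicate the share at shared peaks was 5.68%. For tRNA genes the shares were 5.97% (3.12 to 10.2%) of shared peaks, 2.13% (1.24 to 3.38%) of replicate 1's unshared and 5.79% (4.27 to 7.65%) of replicate 2's unshared, with intervals that overlapped in both comparisons. Any noncoding RNA gene started that near to 24.4% (18.6 to 30.9%) of shared peaks, 8.64% (6.78 to 10.8%) of replicate 1's unshared and 17.1% (14.6 to 19.9%) of replicate 2's, where the intervals overlapped. Genes whose annotated type is only ncRNA started that near to 12.4% (8.21 to 17.8%) of shared peaks, more than either RNA kind above. In the unshared peaks of replicates 1 and 2 their shares were 5.01% (3.60 to 6.76%) and 11.6% (9.44 to 14.0%). Protein-coding genes did so at 12.9% (8.63 to 18.4%), 13.8% and 17.4%.

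**Figure D4:**
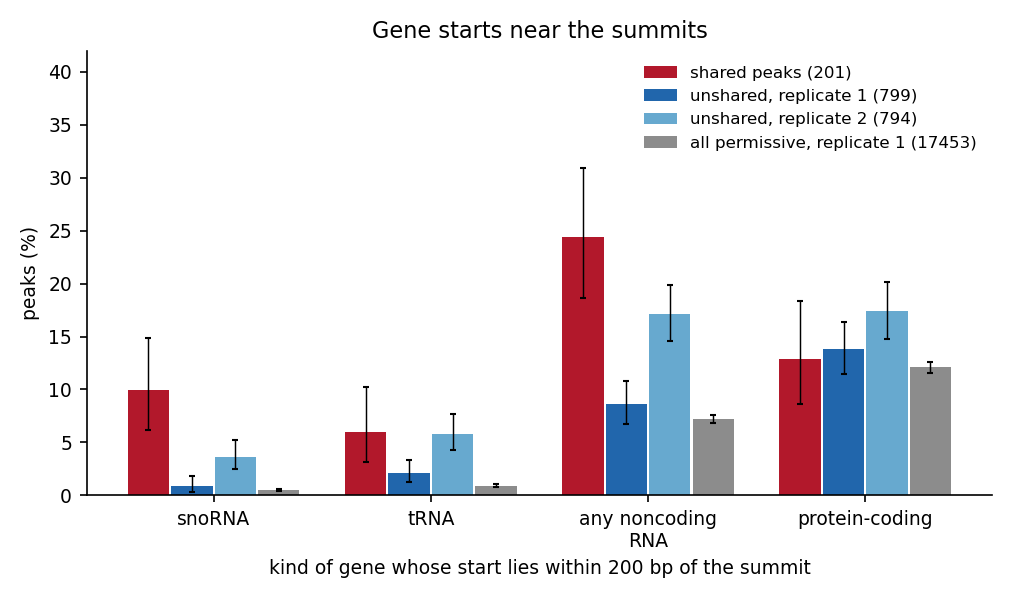
Share of peaks (y axis, percent, bars with exact 95% intervals) with a gene start of each kind within 200 bp of the summit, for the shared peaks, the unshared peaks of each replicate and all permissive replicate 1 peaks. snoRNA starts were near 9.95% of shared peaks, and near 0.876% and 3.65% of the unshared.

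In all, 25 of 346 annotated snoRNA genes had a shared summit in the promoter window or gene body, at 24 peaks. Those peaks were 11.9% of the shared, against 1.13% of replicate 1's and 5.04% of replicate 2's unshared peaks. By replicate 1 rank, the next after ZK994.7 and K11C4.6 was F32E10.10 at ranks 22 and 117, with signals of 26.6 and 23.3. C51F7.4 and its neighbour C51F7.3 followed at ranks 29 and 18, and then C06A1.9 at ranks 72 and 24, with signals of 20.9 and 35.2, at the peak given above for cdc-48.1. After these came F26D10.24 inside hsp-1 at ranks 98 and 20, with signals of 19.7 and 38.2, and C10C6.8 at ranks 101 and 164, with signals of 19.7 and 21.4. The other 17 genes had peaks between rank 106 and 973 in replicate 1. The 20 summits within 200 bp of a start lay a median of 47.0 bp upstream of it, between 143 bp upstream and 193 bp downstream, 12 of them upstream. Of the 25 genes, 14 lay inside a protein-coding gene on the same strand (56.0%), beside 184 of all 346 (53.2%). Spliced leader RNA genes of the SL2 type, whose product is joined to downstream messages of operons, had 2 shared summits near them. These lay 127 bp downstream of the start of sls-2.2 (ranks 33 and 95) and 110 bp downstream of that of sls-2.4 (ranks 157 and 396). Neither lay in a gene body, and other noncoding genes started nearer, C17C3.23 at 27 bp and R12E2.18 at 10 bp. Spliced leader genes met 0.995% of the shared peaks, against 0% and 0.504% of the unshared of replicates 1 and 2.

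The tRNA genes at shared peaks numbered 15 of 612, at 14 peaks. By isotype they were 4 of the 34 annotated tRNA-Ala genes, 3 of the 46 tRNA-Lys genes and 1 gene each of 8 others. These counts include genes with the summit far off: ZK994.t2 (tRNA-Lys), 944 bp upstream at the ZK994.7 peak, and C47E8.t1 (tRNA-Tyr), 974 bp upstream at an hsp-90 peak. For T23F1.t1 (tRNA-Lys) the summit was 190 bp downstream of the start, inside the neighbouring T23F1.t2. Those with a summit within 200 bp of the start and the highest replicate 1 signals were sup-5, a tRNA-Trp gene, at ranks 44 and 276 with signals of 22.6 and 19.1, F56F3.t1 (tRNA-Arg) at ranks 55 and 325 with 21.8 and 18.3, and T07H6.t2 (tRNA-Ala) at ranks 82 and 424 with 20.6 and 17.0. The 12 summits within 200 bp had a median position 55.5 bp into or past the gene, from 17 bp upstream to 149 bp downstream, 11 of them downstream. All 15 genes hold the letters GTTCNANNC of the B box, the internal promoter element of tRNA genes, starting at base 52, 53, 64 or 65 of the gene, as do 587 of all 612 (95.9%). In F15B9.t1, printed above in capitals, they read GTTCAATTC from base 52.

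In the 100 bp to either side of a summit, on both strands, the B box letters were found at 15.9% (11.2 to 21.7%) of shared peaks, 10.5% (8.47 to 12.9%) and 12.8% (10.6 to 15.4%) of the unshared peaks of replicates 1 and 2, and 8.57% of all permissive replicate 1 peaks. TGATGA, the core of the snoRNA C box, was found at 25.4% (19.5 to 32.0%), 16.4% (13.9 to 19.1%), 21.0% (18.2 to 24.0%) and 15.8%. GAGAGA was at 18.9% (13.7 to 25.0%) of shared peaks, below the 24.8% (21.8 to 28.0%) of replicate 2's unshared and above the 14.1% (11.8 to 16.8%) of replicate 1's, with overlapping intervals. CCGCCC was at 4.48%, 4.13% and 6.30%, and TATAAA at 16.4%, 16.1% and 14.9%. Of these 5, TGATGA alone had an interval at shared peaks clear of one unshared set, that of replicate 1. GC content averaged 40.9% ± 6.80 (SD over 201 peaks) at shared peaks, 38.8% ± 6.57 and 41.5% ± 7.02 at the unshared, and 37.2% ± 6.94 over all permissive replicate 1 peaks.

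Among lists of protein-coding genes, ribosomal proteins led by count. Of 82 cytoplasmic ribosomal protein genes, 7 had a shared peak, at 8 peaks (3.98% of the shared, against 1.00% and 3.15% of the unshared). Beside rpl-3 and rpl-35 they were rps-16 (ranks 81 and 404), rps-13 (274 and 914), rpl-1 (478 and 39), rps-26 (727 and 314) and rpl-12 (952 and 98). The rps-13 peak overlapped the one given above past thoc-2. The rps-26 peak was also counted for the snoRNA gene F39B2.14, 250 bp upstream of its start. Across all 19973 annotated protein-coding genes, 174 had one (0.871%), and across all 46890 genes 262 (0.559%). Of 62 chaperone genes 4 had one, hsp-1, hsp-3, hsp-90 and dnj-13, a J-domain co-chaperone gene whose peak was at ranks 783 and 40. Chaperone genes met 2.49% of the shared peaks, against 0.626% and 2.02% of the unshared of replicates 1 and 2. Of 20 Argonaute genes 3 had one, prg-1, hrde-1 and alg-1, at 5 peaks (2.49% of the shared, against 0.375% and 0.126% of the unshared). The second peaks of prg-1 and hrde-1 lay in coding exons, at ranks 68 and 858 and at ranks 191 and 700. In fatty acid synthesis 2 of 41 genes had one, pod-2 with 3 peaks and fasn-1, the fatty acid synthase gene, with 2. Those peaks were 2.49% of the shared, against 0.751% and 1.76% of the unshared. Of the pod-2 peaks 2 overlapped each other and met the same replicate 2 peak, at rank 51. Of 41 translation factor genes 2 had a shared peak, eef-1A.1 and eif-3.C, an initiation factor gene with ranks 359 and 938. Translation factor genes met 0.995% of the shared peaks, against 0.375% and 1.13% of the unshared.

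Single members came from other lists. unc-22, the twitchin gene of muscle, had a coding exon peak at ranks 16 and 265 with signals of 27.5 and 19.3. A peak within unc-54, a muscle myosin heavy chain gene, was at ranks 172 and 23 with signals of 18.2 and 35.6. It was classed as promoter, being 855 bp upstream of aex-5. Muscle structure genes met 0.995% of the shared peaks, against 0.125% and 1.01% of the unshared. prp-8, a core spliceosome gene, held 2, at ranks 73 and 544 and at ranks 559 and 567. mix-1, a condensin gene with a role in dosage compensation, had ranks 933 and 91, beside the snoRNA gene M106.6. The protease genes cpr-5 and cpr-9 were at ranks 323 and 552 and at ranks 526 and 150, the latter 17 bp upstream of the tRNA-Ile gene F57F5.t1. cel-mir-50 had a peak 478 bp upstream, at ranks 663 and 281. Of 15363 piRNA genes 4 had one, 21ur-8016, 21ur-13751, 21ur-8164 and 21ur-14449, which is 1.99% of shared peaks and 2.00% and 2.02% of the unshared. K11D9.5 and linc-80 were the members among lincRNA and antisense RNA genes. The linc-80 peak was also counted for fasn-1, at ranks 771 and 22. lincRNA and antisense RNA genes met 0.995% of the shared peaks, against 0.501% and 0.882% of the unshared. For splicing genes, the list of prp-8, these shares were 0.995%, 0.501% and 0.756%. For condensin and dosage compensation genes they were 0.498%, 0.125% and 0.504%, and for miRNA genes 0.498%, 0.375% and 0.630%. Protease genes met 2 shared peaks, and 2 and 5 unshared peaks of replicates 1 and 2. Each of these lists thus rests on 1 or 2 shared peaks. No gene of the lists for mRNA export and the TREX complex (40 genes), histones (81), cuticle collagens (177), nuclear hormone receptors (269), homeobox factors (78), ubiquitin (26), glycolysis (19), vitellogenins (6), major sperm proteins (31) or rRNA (20) had a shared summit in the promoter window or body. In the mRNA export list, 5 genes had an unshared peak in replicate 1 and 4 in replicate 2. Across all protein-coding genes 0.871% had a shared peak, so these absences alone show no avoidance. Of 799 unshared peaks of replicate 1 and 794 of replicate 2, few met these lists. mRNA export had 5 and 5, histones 3 and 8, collagens 3 and 2, and nuclear hormone receptors 5 and 8. Homeobox factors had 2 and 2, ubiquitin 3 and 7, and glycolysis 2 and 3. Vitellogenins, major sperm proteins and rRNA had none in either replicate.

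Some protein-coding genes carried more than 1 shared peak, and 18 genes held 2 or more, 42 peaks together. frm-1, a FERM-domain gene of 24500 bp, held 4 within 3323 bp. din-1, pod-2, unc-44, the ankyrin gene, and vgln-1, the vigilin gene, held 3 each, and those of vgln-1 lay within 2775 bp at replicate 1 ranks of 31, 47 and 76. Of the shared peaks 17 overlapped another one, and merging them left 192 separate stretches. On the chromosomes, X held 16 shared peaks (7.96%, 4.62 to 12.6%), against 13.9% (11.6 to 16.5%) and 12.6% (10.4 to 15.1%) of the unshared, with overlapping intervals, while X is 17.7% of the length of the 6 chromosomes. Within replicate 2's first 250 peaks X held 7.37% of shared and 8.39% of unshared peaks, and within replicate 1's first 250 it held 5.61% (2.09 to 11.8%) and 14.7% (9.33 to 21.6%).

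The optimal list is the authors' final set, 193 peaks called on pooled reads of both replicates and filtered by the irreproducible discovery rate (IDR), which scores how well peak ranks repeat. It was made from the same reads as the members and is no independent test of them. It is identical to the 193 strongest peaks of the pooled list of 3341. Of the 201 shared peaks 129 overlapped a listed peak (64.2%, 57.1 to 70.8%), and 72 did not. Among all of replicate 1's 1000 strongest the share was 13.9%, and among replicate 2's 20.5%. Of the unshared peaks, 10 of 799 in replicate 1 (1.25%) and 70 of 794 in replicate 2 (8.82%) overlapped it. Seen from the list, 125 of its 193 peaks overlapped a shared peak, 135 one of replicate 1's 1000 strongest and 182 one of replicate 2's. The list took all 24 shared peaks whose worse rank was within 100 (100%, 85.8 to 100%), 86.5% of the 37 at 101 to 250, 75.5% of the 53 at 251 to 500, 41.5% of the 41 at 501 to 750 and 34.8% of the 46 at 751 to 1000.

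**Figure D5:**
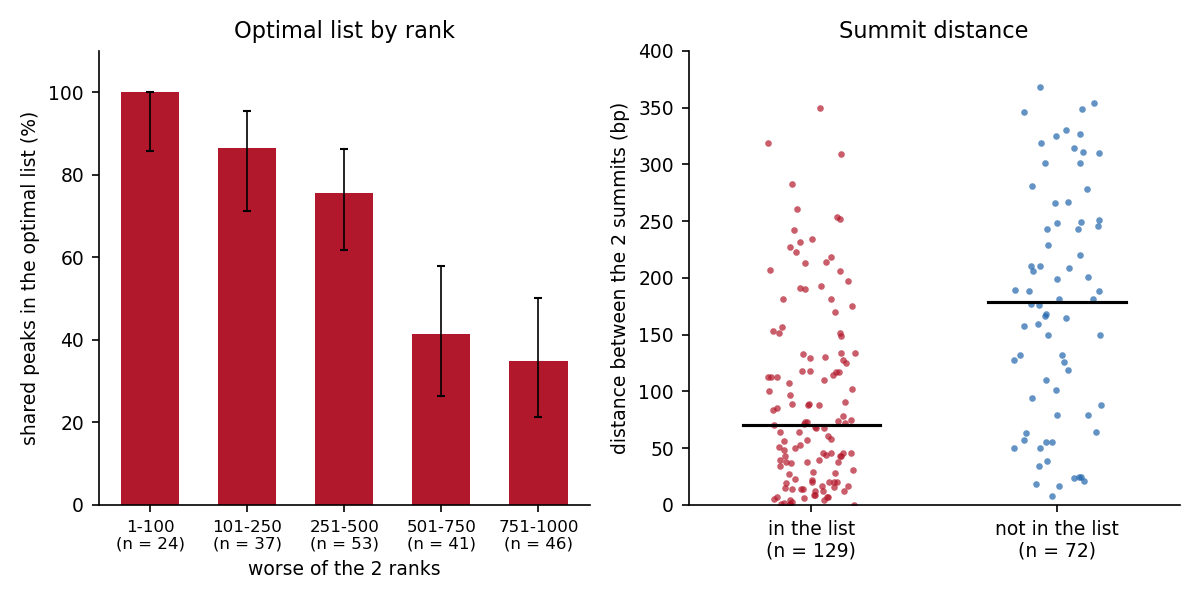
Left, share of shared peaks that overlap the optimal list (y axis, percent, exact 95% intervals) by the worse of both ranks (x axis), from 100% to 34.8%. Right, distance in bp between the replicates' summits for each shared peak in the list and not in it, with bars at the medians of 70.0 and 179 bp.

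The 72 shared peaks that the optimal list lacks had lower signals and summits that lay farther apart. Their median signals were 16.2 in replicate 1 and 15.6 in replicate 2, against 18.9 and 22.1 for those in the list. Their summits were a median of 179 bp apart, with 27.8% (17.9 to 39.6%) within 100 bp, against 70.0 bp and 62.8% (53.8 to 71.1%). They were less often in promoters (38.9%, 27.6 to 51.1%, against 59.7%, 50.7 to 68.2%) and near noncoding RNA starts (13.9%, 6.87 to 24.1%, against 30.2%, 22.5 to 38.9%), with intervals that overlapped slightly. By class, 73.3% of promoter members, 55.8% of coding exon members and 13 of 26 3' UTR members were in the list. For 67 of the 72 a pooled peak existed, at ranks from 204 to 2590 with a median of 412, and 41 of them had a pooled rank of 500 or better. The other 5 met no pooled peak at all. They were 2 in din-1, 1 in prp-8, 1 at tba-2, an alpha-tubulin gene, and 1 at F07A11.5.

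The strongest member lacking from the list was in a coding exon of cbd-1, a gene for a chitin-binding eggshell protein, at rank 92 with a signal of 20.1 in replicate 1 and rank 113 with 23.5 in replicate 2. Its summits were 319 bp apart, and its pooled rank of 204 was just past the list's end. Next came a peak at ranks 195 and 173, classed as noncoding exon. It lay in both mnk-1, a protein kinase gene, and the noncoding RNA gene WBGene00014492. The 3' UTR of acbp-1, an acyl-CoA-binding protein gene, was at ranks 112 and 200. Coding exons of frm-1 (ranks 213 and 169), of lrp-1, an LDL-receptor-related gene (236 and 100), and of let-805, the myotactin gene (183 and 313), followed. The 3' UTR of mbk-2, a kinase gene, was at ranks 281 and 168, and a peak 44 bp into cogc-3, a Golgi complex gene, at 326 and 234. The 2 din-1 peaks with no pooled peak were at ranks 334 and 72 and at ranks 259 and 363. chc-1, the clathrin heavy chain gene (300 and 374), moc-6 (39 and 401), F18E2.15 (166 and 417), ztf-7 (427 and 370) and ipla-1, which overlaps the ephrin receptor gene vab-1 there (110 and 451), completed the first 15. Their pooled ranks, where there was one, ran from 204 to 2322.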

How the data were processed

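The peak lists were deposited by the authors, per the labels, in builds ce10 and ce11, with 1 permissive list per replicate, 1 from the pooled replicates and 1 past the optimal IDR threshold. Per the file descriptions, the permissive lists were made with the same control alignment. The signal value, the deposited score of each peak, is the authors' and its scale is not stated. The deposited −log10 q-value was used only as another ranking. For the peak caller, the aligner, their versions and the IDR cutoff, the sources used here give nothing. Read depth is unknown, so no interval covers it. The replicates are labelled biological, and nothing says whether they came from separate cultures, so their difference may be partly technical.

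Members and gene lists were chosen with earlier results of these data known, and the patterns for Argonautes and translation factors were corrected after their matches were seen. Peaks were ranked by signal, ties by chromosome and start. Replicate 1 peaks are 384 bp wide, replicate 2 peaks up to 380 bp and pooled peaks up to 370 bp. Summits were placed in the Ensembl release 115 annotation of ce11 (WBcel235), each in the first class that applied: promoter, 5' UTR, coding exon, noncoding exon, 3' UTR, intron, up to 500 bp downstream, other intergenic. All peaks lay within the chromosome lengths. A gene list was counted where a summit lay in the promoter window or body of a listed gene. Products of tRNA genes came from RefSeq for 99.2% of them. There being 1 group of 2 replicates, no test was made, and shares were set side by side with exact 95% intervals. Named genes were those of the 20 members with the best worse rank, the 10 strongest of each replicate, list members, the 15 strongest members lacking from the optimal list, the strongest unshared peaks and the peaks at the limit, part of them given by count. Other genes, named at gene ends, for several shared peaks or for lacking a pooled peak, were chosen after their values were seen. The ce10 lists were used within ce10 only. Alternatives varied the number kept, the overlap, the ranking, the side, the windows and the replicates. Computation used SciPy 1.17.1, pandas 2.3.3 and NumPy 2.4.6 under Python 3.11.15, figures matplotlib 3.10.9, and the overlap and ranking steps were tested on simulated peaks. The class step was tested for the promoter class only, at positions just upstream of annotated gene starts.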

Additional observations from a re-analysis of the deposited data

How the results depend on the processing

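Of 87 values recomputed with both replicates kept, 73 stayed within the 95% interval of the main value, or within 1.5 times for the number of shared peaks, and 14 did not. The number was 201, and it was 114 with the 500 strongest, 387 with the 2000 strongest and 108 with summits within 100 bp. The share in the optimal list was 64.2%, and 84.2% with the 500 strongest, 39.5% with the 2000 strongest, 72.7% with an overlap of at least 50% of the shorter peak, 81.5% with summits within 100 bp and 53.2% with the ce10 lists, where the optimal list held 152 peaks. The promoter share of 52.2% became 43.8% with a window of 500 bp upstream to 100 bp downstream and 33.8% when noncoding genes gave no starts, which by construction leaves fewer starts. The coding exon share of 21.4% became 15.7% with summits within 100 bp, the snoRNA share of 9.95% became 5.68% with the 2000 strongest, and mean GC content of 40.9% became 42.2% with summits within 100 bp and 42.5% over the replicate 2 peaks. The number kept and a stricter overlap rule change the number of shared peaks by construction. The optimal list in ce11 stays at 193 peaks whatever the number kept, which limits its share among 387 shared peaks. The cause of the other moves was not tested. Of shared peaks that overlap each other, counting only the strongest, an alternative chosen after seeing the data, left 193.

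Taking the 1000 strongest of a single replicate, which drops the sharing itself, gave 13.9 to 20.5% for the optimal list, 11.6 to 12.7% for X, 46.7 to 51.3% for promoters, 6.50 to 10.5% for 3' UTRs, 24.3 to 24.4% for coding exons, 6.40 to 12.5% for introns, 2.70 to 5.10% for snoRNA starts, 2.90 to 6.0% for tRNA starts and 39.2 to 41.7% for GC content. No paired analysis was possible because the study has a single group, whose 2 replicates carry no shared numbers across groups. Depth is not known from peak lists, so a peak missing from a replicate was not shown to be unbound there.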
